A study of Homo sapiens with 6 samples.

Results

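The Kruppel-like factors (KLFs) are zinc finger transcription factors, and 10 of their genes were described here across cells that overexpressed transketolase (TKT) and their controls: KLF2, KLF3, KLF4, KLF5, KLF6, KLF9, KLF10, KLF11, KLF13 and KLF15. They were selected on their symbol from the 22077 genes of the deposited count table, with the fold changes of these same 6 libraries in view. The values of the 10 genes are therefore given as a description, and their calls in the fit over all genes are no test of them. RNA-seq had been performed on 6 cultures of a human hepatocellular carcinoma line, 3 labelled as an over-expression genotype and 3 control cultures labelled VC with the genotype wt. The labels write the line as Hu7, the Results of the study as Huh7 and its Methods as HCCLM3, and it was treated as Huh7. TKT, an enzyme of the pentose phosphate pathway, was introduced with the plasmid pTSB02-GFP-PURO followed by selection, as stated in the methods of the study. The promoter on the plasmid, the number of clones and what the control cells received are not given in the sources used here, and the cultures are distinguished only by a biosample number, so p-values measure only the spread between these samples, which may be technical. The labels give no other treatment and no time point.

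All KLFs share a DNA-binding region of zinc fingers at the carboxyl end that recognises GC-rich and CACCC sequences, and they differ in the amino-terminal part that recruits cofactors. KLF2, KLF4, KLF5 and KLF6 bind the histone acetyltransferases p300 and CBP, KLF3 binds the corepressor CtBP, and KLF9, KLF10, KLF11 and KLF13 bind the corepressor SIN3A. KLF15 falls outside these subgroups. Many members are immediate-early or hormone-responsive genes: KLF2 and KLF4 lie downstream of ERK5 and MEF2 in endothelium, KLF10 and KLF11 were named for their induction by TGF-beta, and KLF9 and KLF15 respond to glucocorticoids. In liver, KLF15 is known for its part in amino acid catabolism and gluconeogenesis, and KLF6 for its role in hepatocyte and stellate cell biology.

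The start sites of 8 of the 10 genes were found in a RefSeq table of 300-base promoter windows (250 bases before to 50 after a start site, GRCh38.p14), with 10 windows in all because KLF5 and KLF11 have a pair each. Both strands were searched for the cAMP response element (CRE), spelled TGACGTCA, and for the short form that it contains, spelled TGACG. The AP-1 site was searched as TGANTCA and the E-box as CACGTG. The GC box was taken as GGGCGG, the CACCC box as CCACACCC and the TATA box as TATAAA, and the CArG and MEF2 boxes were searched by their usual patterns. The stretches printed here are those in which a member with higher transcript levels carried the full CRE or an E-box, with KLF15 for its E-box and KLF2 for its MEF2 box as members without higher levels. The motif is in capitals and each stretch of 30 bases is written along the strand of its gene.
KLF11, CRE: atttccagccaTGACGTCAccccggtcctg
KLF11, E-box: ccgcccgcagccCACGTGcggccgctgctg
KLF4, E-box: ctcccccgccccCACGTGcgccgagtttgt
KLF6, E-box: cgcggggcgagtCACGTGgggggaggggga
KLF15, E-box: cgcccgctgcgtCACGTGagcggcggggag
KLF2, MEF2 box: tataccgcggCTAAATTTAGgctgcgcccg

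The CRE stretch of KLF11 lies at chr2:10044034-10044063 on the plus strand, inside an intron of the GENCODE 29 gene model. Its motif begins at position -176 from the downstream of the 2 RefSeq starts. The E-box stretch of KLF11 lies at chr2:10043635-10043664 on the plus strand and touches an exon of KLF11, with the motif at -182 from the upstream start. The KLF4 stretch (chr9:107489909-107489938, minus strand) is intronic in the GENCODE 29 model of KLF4 and its E-box begins at -157 from the RefSeq start. That of KLF6 (chr10:3785289-3785318, minus strand) lies outside the gene and all exons, with the E-box at -97. The KLF15 stretch (chr3:126357437-126357466, minus strand) touches an exon of KLF15, with the E-box at -46. The MEF2 box stretch of KLF2 (chr19:16324696-16324725, plus strand) lies outside the gene and all exons, with the motif at -120 from the start. The full CRE was found in 1 of the 8 members, KLF11, and in 1.85% of all 35116 windows. E-boxes were found in 4 members and in 7.26% of all windows. The short CRE form occurred in KLF4, KLF5, KLF11, KLF13 and KLF15 and in 24.6% of all windows, and the GC box in 7 of the 8 members, KLF9 being the exception, and in 45.0% of all windows. The MEF2 box was matched in KLF2 alone among the members and in 0.572% of all windows, and the TATA box in KLF5 alone and in 11.5% of all windows. No member window held the AP-1 site (7.71% of all windows), the CACCC box as spelled here (3.28%) or the CArG box (1.29%). Shorter CACCC sequences, such as that in the printed KLF11 CRE stretch, were not searched. These matches describe letters in the windows and not binding. They cover 1 or 2 windows a member, whereas the shares are per window. The GC content of the member windows was 69.0% to 80.7%, except 32.7% for KLF9 and 40.7% for 1 window of KLF5. The shares over all windows were not matched for GC content.

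The introduced gene was first examined in each library. TKT stood at 9402, 9549 and 9392 CPM (read counts made comparable between libraries by total and TMM factor) in the TKT-overexpressing cultures and at 497, 469 and 515 CPM in the controls. Its log2 fold change was 4.26 (standard error, SE, 0.04, adjusted p = 1.15e-25 in edgeR's quasi-likelihood test), so the libraries matched their labels. Totals lay between 30148788 and 37096156 counts per library. Of the hepatocyte markers, all 11 were in the table, with ALB at 8076 ± 74.4 CPM (SD, n = 3) in TKT-overexpressing and 7914 ± 168 in control cells and AFP at 8644 ± 75.9 and 8334 ± 44.8, while APOB, also a defining marker, was near 0 (0.0432 CPM in controls). The summed CPM of that list ranged from 21230 to 21580 on overexpression and from 20670 to 21060 in controls. Within it FGB rose by 0.50 on the log2 scale (adjusted p = 8.85e-10 in edgeR) and HNF4A fell by 0.15 (adjusted p = 0.00720), and the part of either in the KLF values was not tested. Endothelial markers, of which 2 of 5 were in the table, summed to 15.4–19.4 CPM against 17.1–20.5, mostly PECAM1 (17.0 ± 2.12 against 18.9 ± 1.75), and fibroblast and stellate markers, 4 of 5 in the table, to 1.81–3.08 against 1.75–2.51. The leukocyte list, 4 of 5 in the table and without PTPRC, summed to 122.6–129.1 against 153.7–163.5 CPM, nearly all of it LYZ, which fell by 0.35 (adjusted p = 1.71e-05 in edgeR), and its part in the KLF values was not tested. Since RNA was taken from whole cultures, fewer cells with a transcript and less of it per cell cannot be told apart.

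All 10 KLF genes passed the expression filter, and 5 of them, KLF4, KLF5, KLF6, KLF10 and KLF11, were higher in TKT-overexpressing cells at an adjusted p under 0.05 in the fit over all genes. By that rule 0 members were lower, in edgeR and in DESeq2 alike, and also 0 at an unadjusted p under 0.05 in edgeR. Over the 14162 genes tested, 5.69% were higher and 4.94% lower. For 2 members, KLF4 and KLF11, the log2 fold change also exceeded 1, as it did upwards for 0.699% of all genes tested. In the same 5 members every TKT-overexpressing culture lay above every control culture, and for 0 members did every culture lie below. The groups separated in this way in 14.1% of all genes upwards and in 13.9% downwards. Because these fold changes were known when the members were chosen, the counts describe the members and nothing is read from them. The median log2 fold change of the members was 0.08 and that of all genes 0.0008, and the members ranged from -0.26 for KLF2 to 1.41 for KLF4.

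**Figure D1:**
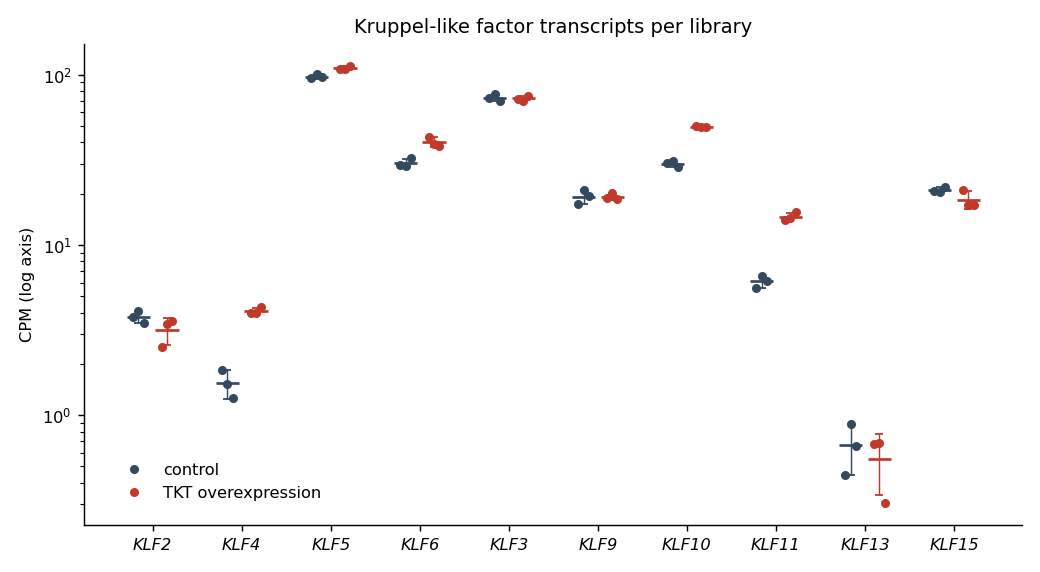
CPM of the 10 KLF genes in each library on a log axis, with control cultures in blue and TKT-overexpressing cultures in red. Points are libraries, horizontal lines the means and bars the SD (n = 3). The red and blue points separate for KLF4, KLF5, KLF6, KLF10 and KLF11 and overlap for KLF2, KLF3, KLF9, KLF13 and KLF15.

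Among the members that bind p300 and CBP, KLF4 differed by most. KLF4, a factor of epithelial differentiation that is also used in reprogramming to pluripotency, stood at 3.99, 3.99 and 4.29 CPM in the TKT-overexpressing cultures and at 1.85, 1.51 and 1.25 CPM in the controls. The lowest TKT-overexpressing library thus held more than the highest control, and the controls were the more scattered group. The means were 4.09 ± 0.172 and 1.54 ± 0.298 CPM (SD, n = 3), a log2 fold change of 1.41 (SE 0.22), or 2.66-fold. These values rest on 123 to 148 reads per library against 42 to 58, and KLF4 was among the more variable genes at the gene level (biological coefficient of variation 0.208, above that of 73.5% of tested genes). The gene spans chr9:107484852-107490482 on the minus strand and shares no exon bases with another gene in GENCODE 29.

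KLF6, a growth-regulating factor that is induced on liver injury, stood at 43.1, 39.0 and 38.0 CPM on TKT overexpression and at 29.4, 29.3 and 32.5 CPM in controls. All TKT-overexpressing cultures were above all controls, with the closest pair at 38.0 and 32.5 CPM. The means of 40.1 ± 2.70 and 30.4 ± 1.81 CPM (SD, n = 3) gave a log2 fold change of 0.40 (SE 0.07), or 1.32-fold. KLF5, which drives proliferation of epithelial progenitors, was the most abundant member. It stood at 107.8, 108.5 and 112.7 CPM against 95.2, 100.4 and 97.0 CPM. The groups did not overlap, although the difference was small beside those of KLF4 and KLF6. Its log2 fold change was 0.17 (SE 0.05), or 1.12-fold, and it met the adjusted p threshold in 7 of 14 alternative analyses. That call ended without TKT-overexpressing replicate 1, without TKT-overexpressing replicate 3, without control replicate 1 and without control replicate 3, with log2 fold changes of 0.18, 0.15, 0.15 and 0.16. The KLF5 call also ended with a replicate block in edgeR and in limma on log2(FPKM + 1) and log2(FPKM + 0.1). KLF6 lies at chr10:3775996-3785281 on the minus strand and KLF5 at chr13:73054976-73077542 on the plus strand.

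KLF2, the factor of the same subgroup best known from endothelium under flow and from quiescent lymphocytes, went the other way in its mean. Its libraries held 2.51, 3.44 and 3.56 CPM on TKT overexpression and 3.76, 4.12 and 3.49 CPM in controls. The groups overlapped, with the TKT-overexpressing replicate 1 below the other 5 libraries. The means were 3.17 ± 0.573 and 3.79 ± 0.315 CPM (SD, n = 3). The log2 fold change was -0.26 (SE 0.20), and it was between -0.35 and -0.11 when each library was left out in turn. KLF2 and KLF4, near relatives in sequence and in endothelial function, therefore had fold changes of opposite sign in these cells, without a separation of the groups for KLF2, which lies at chr19:16324817-16327874 on the plus strand.

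Of the SIN3A-binding members, KLF11 differed by most. KLF11, a TGF-beta-inducible repressor that also acts on insulin and monoamine oxidase genes, stood at 13.9, 14.3 and 15.6 CPM in TKT-overexpressing cultures and at 5.60, 6.58 and 6.11 CPM in controls. The lowest TKT-overexpressing value was over the highest control value by more than the whole range of either group. The means of 14.6 ± 0.874 and 6.10 ± 0.491 CPM (SD, n = 3) gave a log2 fold change of 1.26 (SE 0.12), or 2.40-fold. KLF11 lies at chr2:10042849-10054836 on the plus strand, and 9.07% of its exon bases are shared with AC104794.4, which is not a row of the count table used here. Whether counting used strand is not given in the sources used here, so reads from that stretch could not be assigned to either gene.

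KLF10, the other TGF-beta-inducible member and an early response gene, stood at 50.1, 49.3 and 49.3 CPM against 30.3, 31.1 and 28.7 CPM. For its level this was the tightest of the members on TKT overexpression, where its 3 libraries spanned less than 1 CPM. Its means were 49.6 ± 0.447 and 30.03 ± 1.25 CPM (SD, n = 3), with a log2 fold change of 0.72 (SE 0.06), or 1.65-fold. KLF9, induced by glucocorticoid and thyroid hormone, did not separate the groups. It stood at 18.9, 20.2 and 18.6 CPM on TKT overexpression and at 17.4, 21.0 and 19.3 CPM in controls. The lowest and the highest KLF9 library were both controls, the means were 19.2 ± 0.817 and 19.2 ± 1.78 CPM (SD, n = 3), and the log2 fold change was -0.0001 (SE 0.09). KLF13, a regulator of chemokine expression in T lymphocytes, had few reads, with 25, 21 and 10 reads on TKT overexpression and 14, 27 and 22 in controls. Its log2 fold change of -0.26 (SE 0.47) went from -0.48 to 0.03 with single libraries left out and was above 0 without TKT-overexpressing replicate 3 and without control replicate 2. Its biological coefficient of variation of 0.315 was above that of 90.8% of tested genes. KLF9 lies at chr9:70384597-70414624 on the minus strand and KLF13 at chr15:31326855-31435665 on the plus strand.

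KLF3, the CtBP-binding repressor, stood at 72.3, 69.9 and 75.4 CPM on TKT overexpression and at 72.6, 77.0 and 70.1 CPM in controls. The ranges lay almost on top of each other, with means of 72.5 ± 2.72 and 73.2 ± 3.49 CPM (SD, n = 3), and the log2 fold change was -0.01 (SE 0.05), the smallest SE among the 5 members that were not called. KLF3 lies at chr4:38664196-38701042 on the plus strand, and 4.22% of its exon bases are shared with the antisense gene KLF3-AS1. KLF15, the glucocorticoid-responsive factor of amino acid and glucose metabolism, stood at 21.0, 17.2 and 17.2 CPM against 20.8, 20.5 and 21.9 CPM. A pair of TKT-overexpressing cultures lay below all controls and the third lay among them, with means of 18.5 ± 2.19 and 21.1 ± 0.751 CPM (SD, n = 3). The log2 fold change of KLF15 was -0.19 (SE 0.09), from -0.29 to -0.14 with single libraries left out. The gene lies at chr3:126342635-126357442 on the minus strand.

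**Figure D2:**
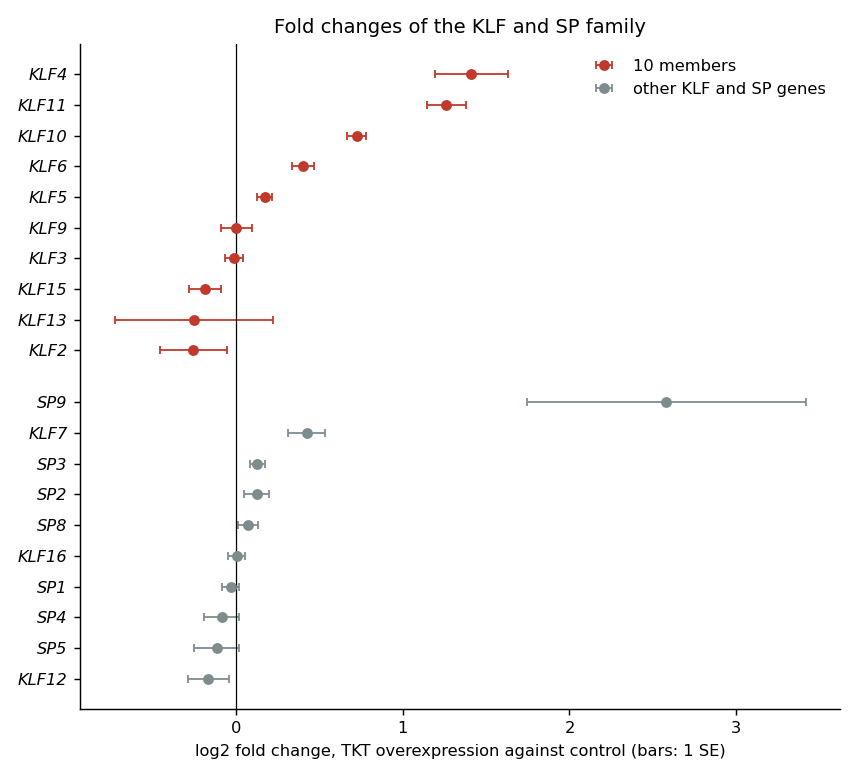
Fold changes (log2, TKT overexpression against control) of the 10 members in red and of the 10 other tested KLF and SP genes in grey, with bars of 1 SE from the fit over all genes. KLF4 (1.41) and KLF11 (1.26) lead the members, 5 members sit near or below 0, and SP9 (2.58) has the widest bar.

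Levels of different genes were compared in FPKM, which divides by gene length. KLF5 had the highest level in control cells with 26.4 ± 0.928 FPKM (SD, n = 3), followed by KLF3 with 10.8 ± 0.603, KLF10 with 7.82 ± 0.380, KLF15 with 7.45 ± 0.227, KLF6 with 4.92 ± 0.270 and KLF9 with 3.68 ± 0.367. Below these came KLF2 with 1.34 ± 0.122 FPKM, KLF11 with 1.32 ± 0.116, KLF4 with 0.418 ± 0.0806 and KLF13 with 0.0701 ± 0.0240. The libraries of neighbours in this order overlapped for KLF10 and KLF15 and for KLF2 and KLF11. On TKT overexpression KLF5 stayed highest with 29.7 ± 1.07 FPKM, and KLF10, at 12.9 ± 0.184, came before KLF3 at 10.7 ± 0.539. The next were KLF15 (6.55 ± 0.767 FPKM) and KLF6 (6.51 ± 0.421), whose libraries overlapped, then KLF9 (3.69 ± 0.115) and KLF11 (3.18 ± 0.226). KLF2 (1.12 ± 0.207 FPKM) and KLF4 (1.11 ± 0.0606) overlapped, and KLF13 was last at 0.0583 ± 0.0223. The KLF4 level, although 2.66-fold higher in CPM, was thus still among the lowest of the 10 genes, whereas KLF10 moved from the third to the second place.

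**Figure D3:**
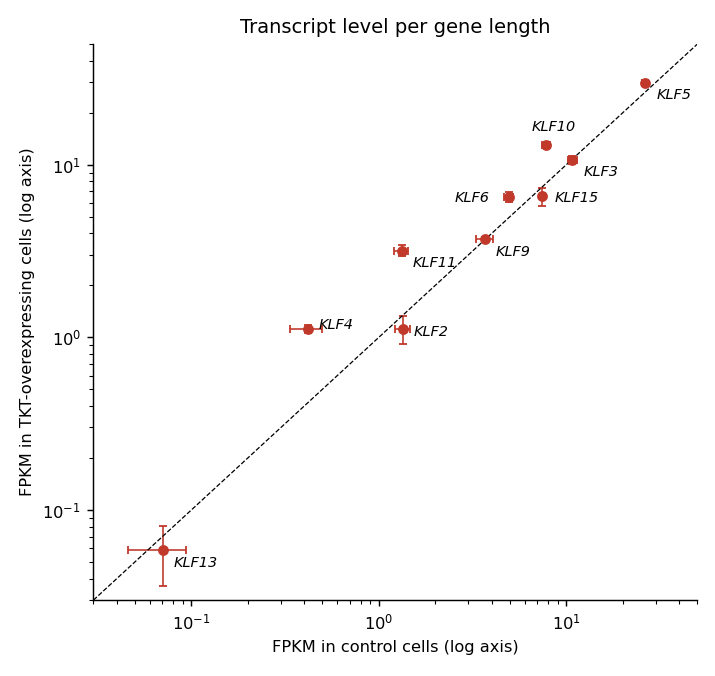
Mean FPKM of the 10 KLF genes in TKT-overexpressing cells against control cells, on log axes, with bars of 1 SD (n = 3) and a dashed line of equal levels. KLF4, KLF11 and KLF10 sit farthest above the line, KLF5 is highest on both axes, and KLF13 is lowest.

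The FPKM of the 10 genes summed to 75.95, 73.49 and 77.27 in the TKT-overexpressing cultures and to 62.53, 66.57 and 63.28 in the controls, a ratio of 1.18 between the means. The groups of sums did not overlap. As the members were chosen with these fold changes in view, the sum describes these 10 genes only and nothing is read from it. The difference of 11.4 FPKM was made up mainly of KLF10 (5.12 FPKM higher) and KLF5 (3.37 higher), then KLF11 (1.85), KLF6 (1.59) and KLF4 (0.697), while KLF15 (-0.900) and KLF2 (-0.215) took from it. The genes with the highest fold changes were thus not those that added most transcripts. As a share of the sum, KLF10 went from 12.2% ± 0.430 in controls to 17.1% ± 0.224 (SD, n = 3), KLF11 from 2.06% ± 0.117 to 4.20% ± 0.236 and KLF4 from 0.652% ± 0.134 to 1.47% ± 0.0527. KLF5 took 41.1% ± 0.115 in controls and 39.3% ± 0.856 on TKT overexpression, KLF3 16.8% ± 0.520 and 14.1% ± 0.377, and KLF15 11.6% ± 0.588 and 8.66% ± 0.971. These shares add up to the whole in each library, so a higher share of KLF10 alone lowers that of the others.

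The remaining KLF genes and the SP genes, which have the same zinc fingers, numbered 17 in the list, of which 12 were in the table and 10 passed the filter, KLF14 and SP6 being too low. Of these, 1 rose by edgeR's quasi-likelihood test and 0 fell, with 3 higher and 0 lower at an unadjusted p under 0.05 and 1 higher and 0 lower by DESeq2. Over all genes tested, 5.69% were higher and 4.94% lower. Their groups separated upwards in 4 genes and downwards in 0, beside 14.1% and 13.9% over all genes. KLF7, the closest relative of KLF6, stood at 13.9 ± 0.509 CPM on TKT overexpression and at 10.4 ± 1.07 in controls (log2 fold change 0.42, SE 0.11, adjusted p = 0.0157 in edgeR). This call ended without TKT-overexpressing replicate 1 (adjusted p = 0.0519 in edgeR), without TKT-overexpressing replicate 2 (0.0520) and without control replicate 1 (0.0987). It also ended with a replicate block in edgeR (0.0522) and in limma on log2(FPKM + 1) (0.0700) and log2(FPKM + 0.1) (0.0764), so that it held in 8 of 14 alternatives, and over all 14 alternatives the adjusted p ranged from 0.00860 to 0.0987. KLF12, a repressor related to KLF3, had a log2 fold change of -0.17 (SE 0.12, adjusted p = 0.449 in edgeR), and KLF16, a SIN3A-binding relative of KLF9, of 0.0014 (adjusted p = 0.992). SP1, SP2, SP3, SP4, SP5 and SP8 lay between -0.12 and 0.13 on the log2 scale, and none passed the test, SP3 having the smallest adjusted p among them (0.0806 in edgeR). SP9 had 13, 13 and 14 reads on TKT overexpression against 2, 4 and 0 in controls (log2 fold change 2.58, SE 0.84, adjusted p = 0.0516 in edgeR). The log2 fold change was 3.54 without control replicate 2 (adjusted p = 0.0396 in edgeR) and 1.99 without control replicate 3 (adjusted p = 0.185). SP9 also passed in limma on log2(FPKM + 1) (adjusted p = 0.0338) and on log2(FPKM + 0.1) (0.0239), within a range of 0.0239 to 0.185 over 12 alternatives.

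The cofactors that the KLFs recruit, 10 genes all of which were tested, showed 1 gene higher and 1 lower. Of all genes tested, 5.69% were higher and 4.94% lower at the same threshold. CREBBP, which encodes CBP, rose by 0.19 on the log2 scale (SE 0.06, adjusted p = 0.0412 in edgeR), and HDAC1, a deacetylase of the SIN3A complex, fell by 0.12 (SE 0.04, adjusted p = 0.0452 in edgeR). Each call held in 5 of 14 alternatives and ended on leaving out any library other than control replicate 2, with an adjusted p in edgeR of up to 0.2202 for CREBBP and 0.198 for HDAC1. EP300, KAT2B, CTBP1, CTBP2, SIN3A, SIN3B, HDAC2 and HDAC3 did not pass the test. At an unadjusted p under 0.05 in edgeR, 3 cofactors were higher, CREBBP, EP300 and KAT2B, and 1 was lower. By DESeq2 1 was higher and 1 lower. Among 13 tested regulators upstream of KLF genes, 2 rose and 0 fell, beside the same shares over all genes. The counts were equal in DESeq2 and at an unadjusted p under 0.05 in edgeR. NR3C1, the glucocorticoid receptor, went from 22.7 ± 1.92 to 31.7 ± 1.95 CPM (log2 fold change 0.48, SE 0.08, adjusted p = 3.85e-04 in edgeR), and SMAD3, which carries the TGF-beta signal, from 76.0 ± 2.42 to 88.9 ± 3.29 CPM (0.23, SE 0.05, adjusted p = 0.00594 in edgeR). The kinases MAP3K3, MAP2K5 and MAPK7 (ERK5), the MEF2 genes in the table, SRF, ELK1, the TGF-beta receptors, SMAD2 and SMAD4 did not pass. The NR3C1 call held in all 14 alternatives and the SMAD3 call in 12. Whether NR3C1 or SMAD3 had a part in the KLF values was not tested.

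Of 6 ubiquitin ligases that act on KLF proteins, 1 rose and 1 fell, beside 5.69% higher and 4.94% lower over all genes tested. At an unadjusted p under 0.05 in edgeR 2 were higher and 1 lower, and by DESeq2 0 and 1. VHL, which can target KLF4, fell by 0.22 on the log2 scale (SE 0.05, adjusted p = 0.00711 in edgeR), and SMURF1 rose by 0.18 (SE 0.06, adjusted p = 0.0381 in edgeR). The SMURF1 call ended without TKT-overexpressing replicate 1, without TKT-overexpressing replicate 3, without control replicate 1 and without control replicate 3, with an adjusted p of up to 0.218 in edgeR. It also ended by DESeq2, with the replicate block and in limma on both FPKM scales, and held in 6 of 14 alternatives. The VHL call held in 12 of 14 and ended in limma on both FPKM scales. WWP1 and FBXW7, ligases of KLF5, as well as SMURF2 and SIAH1, did not pass the test.

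A list of 24 genes known as KLF targets had 22 in the table and 20 tested, of which 3 rose and 3 fell. At an unadjusted p under 0.05 in edgeR 6 were higher and 5 lower, and by DESeq2 3 and 3. The shares over all genes tested were 5.69% higher and 4.94% lower. LAMA3, a laminin chain, went from 1.62 ± 0.602 to 5.07 ± 0.732 CPM (log2 fold change 1.64, SE 0.24, adjusted p = 8.40e-05 in edgeR), and CCND1, the G1 cyclin that KLF5 activates and KLF4 and KLF6 oppose, rose by 0.18 (SE 0.03, adjusted p = 0.00159 in edgeR). CDKN1A, the cell cycle inhibitor p21 that KLF4 and KLF6 activate, fell by 0.54 (SE 0.11, adjusted p = 0.00265 in edgeR), from 15.9 ± 0.575 to 10.9 ± 1.54 CPM. BCAT2, the branched-chain aminotransferase that KLF15 activates, fell by 0.31 (SE 0.06, adjusted p = 9.94e-04 in edgeR). CCNB1, a mitotic cyclin, fell by 0.12 (adjusted p = 0.0363 in edgeR) and is named after its values were seen. For the monoamine oxidases that KLF11 regulates, MAOA had 35.4 ± 1.21 CPM on TKT overexpression against 35.1 ± 1.82 in controls and MAOB 100.4 ± 4.69 against 106.3 ± 4.86, and both are given after their values were seen (adjusted p = 0.950 and 0.357 in edgeR). SMAD7, a gene that KLF10 and KLF11 repress, had a log2 fold change of 0.13 (SE 0.08, adjusted p = 0.318 in edgeR) and was likewise picked after its values were seen. The median log2 fold change of the 20 targets was 0.04 and that of all genes 0.0008.

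Several KLF genes are counted among immediate-early genes, so 20 other genes of that kind were set beside them. Of these, 17 were tested, 8 rose and 0 fell in edgeR (13 and 0 at an unadjusted p under 0.05, 7 and 0 by DESeq2), beside 5.69% higher and 4.94% lower over all genes tested. All 17 fold changes were above 0, with a median of 0.43, while over all genes 7112 of 14162 were above 0. This list, like the others, was chosen with earlier results of these data known. Its counts are therefore a description and no test of the list. ATF3, a stress-induced factor, went from 8.18 ± 1.42 to 25.9 ± 0.478 CPM (log2 fold change 1.66, SE 0.11, adjusted p = 6.33e-10 in edgeR), beside 1.41 for KLF4 and 1.26 for KLF11. JUN rose by 0.77 (adjusted p = 3.96e-11 in edgeR), GADD45B by 0.74 (adjusted p = 9.63e-07) and the matricellular gene CCN1 by 0.90 (SE 0.05, adjusted p = 2.43e-11), beside 0.72 for KLF10. CCN2 rose by 0.22 (adjusted p = 4.57e-04 in edgeR), beside 0.17 for KLF5. FOS and EGR1 had fold changes of 0.43 and 0.50 on the log2 scale and did not pass the test (adjusted p = 0.172 and 0.143 in edgeR). The EGR1 groups separated upwards all the same. The other called genes were FOSB (0.62, adjusted p = 0.0196 in edgeR), BTG2 (0.52, adjusted p = 0.00329) and NR4A3 (1.37, adjusted p = 0.0386). NR4A3 had 8 to 68 reads a library. These genes too were picked after their values were seen. Groups separated upwards in 11 of the 17 and downwards in 0, beside 14.1% and 13.9% over all genes. Whether the higher KLF4, KLF6, KLF10 and KLF11 levels and those of these genes had a shared origin was not tested.

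**Figure D4:**
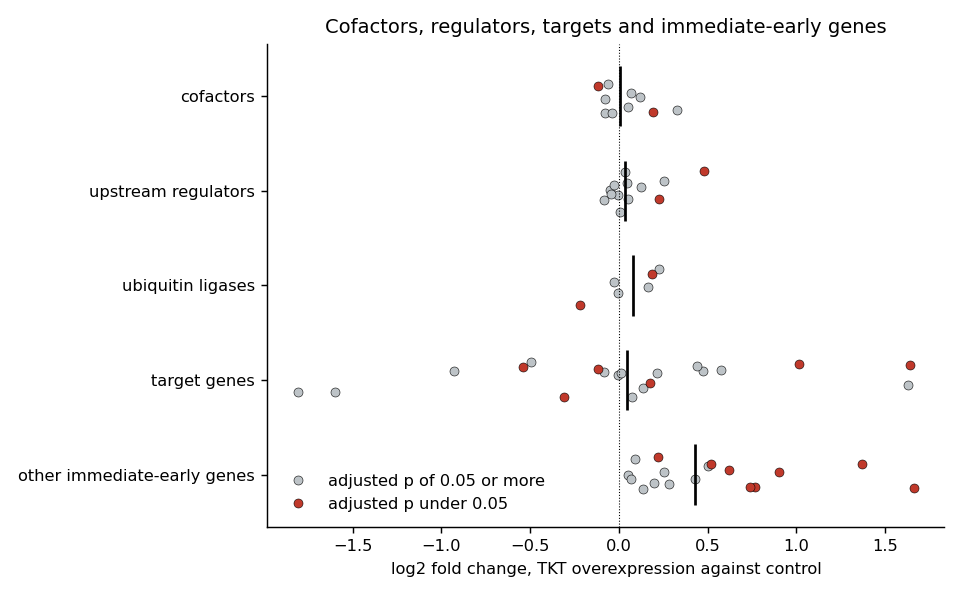
Fold changes (log2, TKT overexpression against control) of the tested genes in 5 lists set beside the KLF members. Each point is a gene, red where its adjusted p was under 0.05 in edgeR, the vertical bars are medians and the dotted line marks 0. The other immediate-early genes lie wholly to the right of 0 (median 0.43), and the target genes spread to both sides (median 0.04).

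The profile over the 6 libraries nearest to that of KLF4, by Euclidean distance between log2 CPM values centred on each gene's mean, was that of RAD9B (distance 0.32), then NHLH1 (0.34) and HSPB8 (0.35). RAD9B and NHLH1 had means under 1 CPM in both groups, while HSPB8 went from 4.38 to 12.5 CPM. For KLF2, the member with the lowest fold change, the nearest were MSTO2P (0.16), AK1 (0.17) and LETM2 (0.18). Nearness in 6 libraries of a single contrast describes the shape of the profile only.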

How the data were processed

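Total RNA of the 6 cultures was sequenced as 150-base paired-end reads. The authors trimmed the reads with fastp 0.22.0, aligned them with HISAT2 2.1.0 (hg38 in the submitters' processing notes) and obtained gene-level read counts with featureCounts. The annotation, strand setting and treatment of multi-mapping reads are not given in the sources used here. The deposited counts are whole reads per gene symbol without normalization, and the authors also deposited FPKM values, which were used for levels between genes. Columns of gene function were not tested.

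Differential expression was computed from the counts with edgeR 4.0.16 under R 4.3.3. Low genes were removed by filterByExpr (condition as the group, at least 10 counts as its minimum), followed by TMM scaling, a robust quasi-likelihood fit and test without covariates, two-sided, Benjamini-Hochberg over the 14162 genes tested. Genes were called at an adjusted p under 0.05, and also with an absolute log2 fold change over 1. The common biological coefficient of variation was 0.113, and totals per library were 30148788 to 37096156 counts. The labels state no pairing of cultures by replicate number, so none was modelled in the main fit. No libraries looked like copies, with a chi-square per degree of freedom between replicates of 7.27 to 10.0. The alternatives were DESeq2 1.42.0, size factors or total counts for scaling, other filters, the replicate number as a block, limma 3.58.1 on log2(FPKM + 1) and log2(FPKM + 0.1), and each library left out. The scripts were tested on simulated counts. Positions came from GENCODE 29 (GRCh38) and promoter windows from RefSeq (GRCh38.p14), matched by symbol for 8 of the 10 members; KLF3 and KLF10 were not analysed for motifs.

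The members and the gene lists were chosen with earlier results of these data known, so members carry no p-value. Genes named are the 10 members, TKT, all other tested KLF and SP genes, up to 5 called genes with the smallest p in each other list, the nearest profiles (3 genes each, log2 CPM with a prior count of 2) of the members with the highest and lowest fold change, and 4 markers, ALB, AFP, PECAM1 and PTPRC. FGB, HNF4A, LYZ, APOB, CCNB1, MAOA, MAOB, SMAD7, FOS, EGR1, FOSB, BTG2, NR4A3 and the list members named as not past the test were added after their values were seen. A called gene of the target list is not reported here.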

Additional observations from a re-analysis of the deposited data

How the results depend on the processing

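The 5 members called higher numbered 4 to 5 and those called lower 0 when each library was left out in turn, and KLF4, KLF6, KLF10 and KLF11 were called in all 14 alternatives. All alternatives reuse the libraries whose fold changes were in view when the members were chosen. They describe dependence on processing only and are no support for the members. On log2(FPKM + 1), a scale that compresses low levels, the fold changes were 0.58 for KLF4, 0.66 for KLF10 and 0.85 for KLF11, and 0 members passed the stricter rule instead of 2. The other 137 of 140 member values moved by less than the spread between replicates. Among members not called, the sign changed with single libraries left out for KLF3 (-0.05 to 0.03), KLF9 (-0.07 to 0.07) and KLF13 (-0.48 to 0.03), and that of KLF9, near 0, also with total counts, both other filters, the block and both FPKM scales.

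The counts over all genes were 806 higher and 699 lower. They were 431 and 266 in a fit with a replicate block, 496 and 331 on log2(FPKM + 1), 494 and 332 on log2(FPKM + 0.1), and 457 to 820 higher and 334 to 766 lower with single libraries left out. Genes past the stricter rule numbered 103, but 63 by DESeq2, 160 without a filter, 67 with the block, 13 on log2(FPKM + 1) and 66 on log2(FPKM + 0.1). Called genes among the other KLF and SP genes numbered 1 (KLF7), but 0 with the block and 0 to 2 with libraries left out, and on either FPKM scale the 1 gene was SP9 instead. Called cofactors numbered 2, but 1 with total counts, 1 without a filter, 0 with the block, 0 on either FPKM scale and 0 to 2 with libraries left out. Called upstream regulators numbered 2, but 1 on log2(FPKM + 1) and 1 on log2(FPKM + 0.1). Called ubiquitin ligases numbered 2, but 1 by DESeq2, 1 with the block, 0 on either FPKM scale and 1 to 2 with libraries left out. KLF16, not past the test in any, changed sign by DESeq2 (-0.0003), without TKT-overexpressing replicate 2 (-0.01) and without control replicate 2 (-0.0004), and SP4 without control replicate 2. Single libraries left out put KLF16 between -0.01 and 0.0072 and SP4 between -0.14 and 0.02. The cause of these shifts was not tested. Fits with a library left out also had fewer samples, and that effect was not separated from the influence of the library.

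Deviations of same-numbered cultures from their group means correlated at -0.002, -0.025 and 0.016 over all tested genes. No pairing by number was seen in these values, which cannot exclude one limited to some genes. With the block 4 members were called. KLF13 had low counts (10 to 27 reads a library) and a wide spread between cultures, and KLF5 had a small difference with 3 cultures a group. Whether these had a part in the unstable KLF13 sign and KLF5 call was not tested.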
